A study of Mus musculus with 4 samples.

Results

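Ccl3, Ccl4, Ccl5 and Xcl1, the chemokine genes for which CD8+ T cells are best known, were followed through 8 clusters of CD8+ T cells from mouse BM. They were chosen by name, as 4 of the 17561 genes in the count table, and all 4 were found there through their Ensembl identifiers. The cells were sort purified 4 weeks after SCT (day 28) from C57BL/6 background recipients, WT (C57BL/6J in the study's methods) or CRBN transgenic, that had received BM and T cells of genetically matched donors. By the study's methods, recipients had been injected with myeloma cells before the transplant. Each of the 4 libraries was a pool of 5 mice of 1 treatment group: Isotype control + vehicle, TIGIT inhibition + vehicle, Isotype control + Lenalidomide, or TIGIT inhibition + lenalidomide, with the antibody given from the day of transplant and the drug or its vehicle from day 14. The CRBN transgene carries a modified cereblon that lets lenalidomide act in mouse cells, and the sample labels do not say which groups carried it.

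The count table numbers the libraries from 1 to 4 without naming their treatments, so no value was assigned to a treatment and the libraries were not averaged as replicates. Comparisons were made between clusters, as the authors named them: naive (Tn), central memory (Tcm), transitory Teff, GzmB+ Teff, TIGIT+ Teff, GzmA+ Tex, TIM-3+ Tex and cycling cells. The cycling cells carry the authors' label Tex_Cycling, and are counted apart from the 5 Teff and Tex clusters here. The clusters had been made from these same genes, so differences between them are given as descriptions with no test. The 11754 cells were spread as 1725 to 4237 cells per library with 15556967 to 38440687 unique molecular identifiers (UMIs, each standing for a captured RNA molecule), and the libraries shared 56 cell barcodes. Markers of CD8+ T cells were present in all clusters, with summed levels of Cd3e, Cd3g, Cd8a, Cd8b1 and Trac between 2669 and 6750 counts per 1000000 UMIs (CPM), and Cd4 did not exceed 1.53 CPM. Cd8b1 alone stood at 217 CPM in Tcm against 934 to 1327 CPM in the other clusters. Of 5 listed NK cell markers, Klrb1c (242 CPM), Klrk1 (490 CPM) and Ncr1 (4.92 CPM) were highest in Tcm, and Nkg7 and Gzma in TIM-3+ Tex. Klrb1c stood at 10.5 to 67.2 CPM outside Tcm. A list of 10 macrophage markers summed to 1600 CPM in GzmA+ Tex (1111 to 1808 over libraries) against 11.9 to 103 CPM in the other clusters.

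Chemokines are small secreted proteins that draw leukocytes along a gradient through receptors coupled to G proteins. Ccl3 and Ccl4 encode MIP-1α and MIP-1β, which CD8+ T cells release after antigen contact to draw in other leukocytes. Ccl5 encodes RANTES, which memory and effector CD8+ T cells transcribe without new stimulation and hold ready for release. Xcl1 encodes lymphotactin, which binds XCR1 on cross-presenting dendritic cells and is made by NK cells and by activated and memory-like CD8+ T cells.

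Ccl5, Ccl3 and Ccl4 lie in a cluster of chemokine genes on chromosome 11 and Xcl1 on chromosome 1, and the coding sequence of each shows the family it belongs to. In the GENCODE M21 annotation of GRCm38, all 4 are protein-coding: Ccl5 (ENSMUSG00000035042) lies at chr11:83525778-83530518 on the minus strand, Ccl3 (ENSMUSG00000000982) at chr11:83647844-83649355 on the minus strand, Ccl4 (ENSMUSG00000018930) at chr11:83662584-83664683 on the plus strand, and Xcl1 (ENSMUSG00000026573) at chr1:164931644-164935527 on the minus strand. Codons 26 to 42 of each coding sequence are shown with the cysteine codons in capitals, because their spacing names the family.
Ccl3: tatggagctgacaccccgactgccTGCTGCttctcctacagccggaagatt
Ccl4: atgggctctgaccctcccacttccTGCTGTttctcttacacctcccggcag
Ccl5: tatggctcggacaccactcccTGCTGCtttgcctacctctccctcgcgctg
Xcl1: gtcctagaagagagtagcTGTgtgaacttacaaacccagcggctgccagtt

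Ccl3, Ccl4 and Ccl5 held an adjacent pair of cysteine codons, which defines CC chemokines, at codons 34 and 35 in Ccl3 and Ccl4 and at codons 33 and 34 in Ccl5. Xcl1 held a single cysteine codon in the stretch, at codon 32, as XC chemokines do. The aligned coding sequences of Ccl3 and Ccl4 were identical at 70.0% of bases, and the other pairs at 59.4% to 64.8%. The longest run of bases shared by transcripts of any pair was 13, so these genes do not share long stretches in which reads could not be told apart. Between Ccl5 and Ccl3 on chromosome 11 lie Ccl9, Ccl6 and Rpl9-ps1. Ccl9 did not exceed 5.00 CPM in any cluster, and Ccl6 reached 35.7 CPM in GzmA+ Tex, where the macrophage markers were also high.

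Ccl3 was lowest in Tn and highest in TIM-3+ Tex in each of the 4 libraries. In TIM-3+ Tex it stood at 2258, 1939, 4066 and 1911 CPM in libraries 1 to 4, where the third value came from 31 cells. In Tn it stood at 25.0, 20.4, 14.9 and 6.66 CPM. Tcm lay between them, at 60.4 to 71.4 CPM. The ranges over libraries did not overlap between Tn and Tcm, between Tcm and transitory Teff (368 to 506 CPM), or between TIGIT+ Teff (519 to 1500 CPM) and TIM-3+ Tex. The clusters between these bounds overlapped with their neighbors in the order: transitory Teff, GzmB+ Teff (141 to 673 CPM), cycling cells (461 to 867 CPM), GzmA+ Tex (705 to 1174 CPM) and TIGIT+ Teff.

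Ccl4 followed Ccl3 closely. It reached 3006, 2898, 6047 and 3383 CPM in TIM-3+ Tex of libraries 1 to 4 and 49.3, 64.7, 65.5 and 46.3 CPM in Tn. Tcm held 157 to 189 CPM, above Tn and below every other cluster in all 4 libraries. The ranges of GzmB+ Teff (428 to 1027 CPM), cycling cells (779 to 1043 CPM), transitory Teff (773 to 1281 CPM), TIGIT+ Teff (1023 to 2337 CPM) and GzmA+ Tex (1124 to 1959 CPM) ran into each other.

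Ccl5 was detected in nearly all cells of every cluster, and its clusters differed in the number of UMIs per cell. TIM-3+ Tex held 30681, 31151, 31134 and 32998 CPM in libraries 1 to 4, again the highest cluster in each, and did not overlap with transitory Teff at 19744 to 27803 CPM. Tn held 6116, 3760, 3604 and 4737 CPM, and Tcm held 7272 to 9918 CPM. GzmB+ Teff (13108 to 15980 CPM) lay apart from cycling cells (9729 to 11545 CPM), and cycling cells overlapped with Tcm. The median cell had 30 UMIs of Ccl5 in Tn and 275 in TIM-3+ Tex.

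Xcl1 did not share this order. Tcm was its highest cluster in libraries 1, 2 and 3, at 567, 468 and 451 CPM, and held 555 CPM in library 4. Transitory Teff stood at 495, 356, 251 and 1024 CPM and was the highest cluster in library 4 alone. In TIM-3+ Tex, where the other 3 genes peaked, Xcl1 stood at 306, 107, 46.9 and 406 CPM, the third from 31 cells. Tn (61.8 to 107 CPM) was the lowest cluster in 3 libraries, and TIM-3+ Tex was the lowest in library 3. Of neighboring clusters in the order of Xcl1, only cycling cells (128 to 273 CPM) and Tn had ranges that did not overlap.

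**Figure D1:**
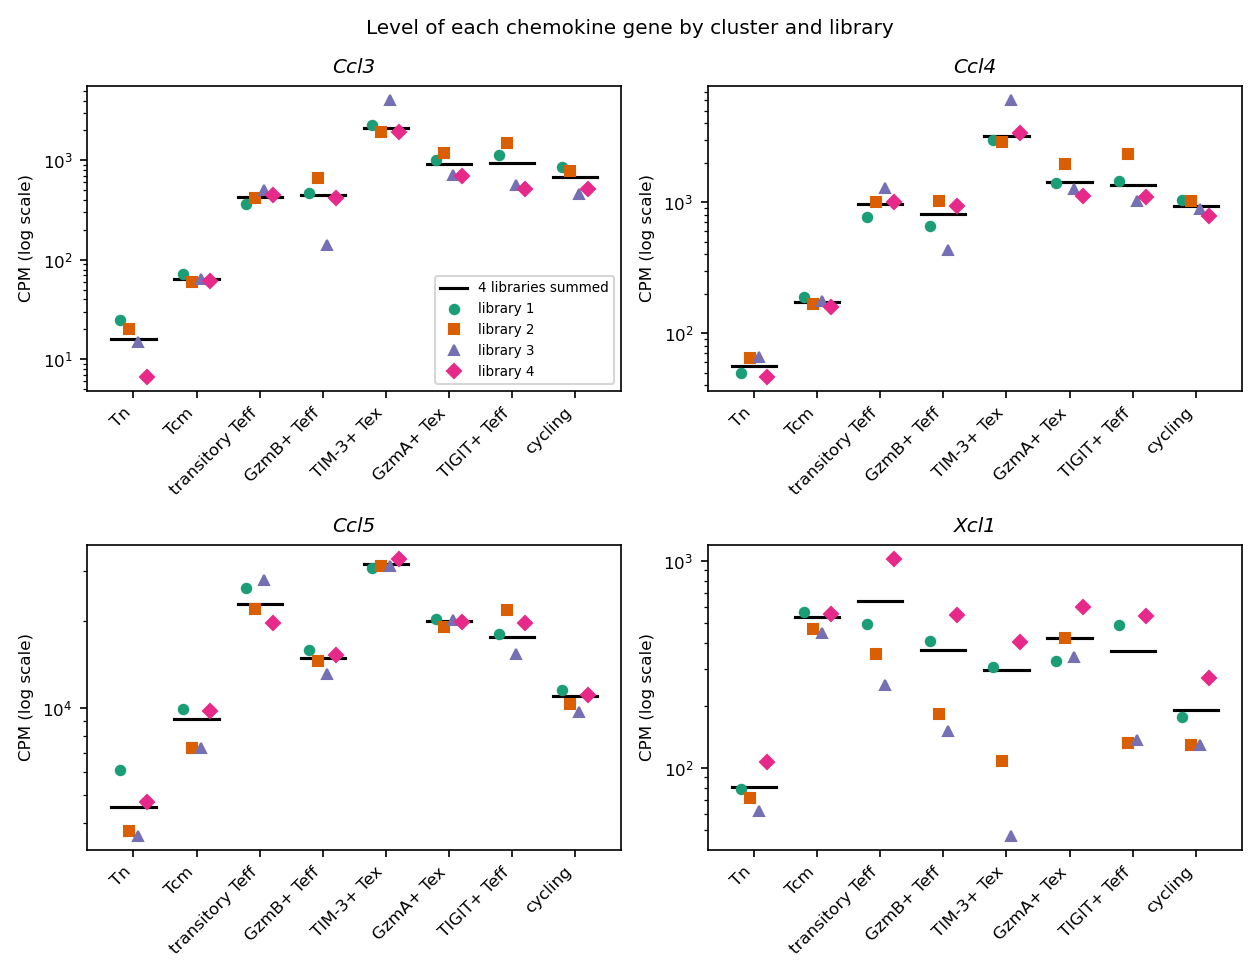
Level of each gene in CPM on a log scale (y axis) by cluster (x axis), with a point for each library and a bar for the 4 libraries summed. Ccl3, Ccl4 and Ccl5 peak in TIM-3+ Tex in every library, whereas Xcl1 spans 46.9 to 406 CPM there and is held between 451 and 567 CPM in Tcm.

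The libraries differed in Xcl1 more than in the CC chemokines. Library 4 held the highest Xcl1 level in every cluster other than Tcm, which was highest in library 1. In a split of the variance of log2(CPM + 10) over the 32 sums of cells (8 clusters in 4 libraries), clusters took 94.8%, 96.5% and 96.1% for Ccl3, Ccl4 and Ccl5, and libraries took 1.42%, 0.529% and 1.06%. For Xcl1, clusters took 59.2% and libraries 27.6%. With 1 library per group, treatment, mouse pool and library cannot be told apart in this difference.

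How much the genes differed between stages was described by ratios of CPM over all cells, with 95% intervals for counting error only. From Tn to the 5 Teff and Tex clusters together, Ccl3 was 61.5-fold higher (log2 ratio 5.94, interval 5.73 to 6.16) and Ccl4 28.7-fold (4.84, 4.73 to 4.96). Ccl5 was 4.95-fold and Xcl1 5.45-fold higher (log2 ratios 2.31 and 2.45). With 10 CPM added to both sides, all 4 genes were at least 2-fold higher in each library, a mark that 2.57% of the 7482 genes at 10 CPM or more reached upward and 0.241% downward. The median log2 ratio over libraries was exceeded by 0 genes for Ccl3, 1 for Ccl4, 25 for Ccl5 and 51 for Xcl1. When each clonotype was counted once, cells with no TCR called were also left out. The log2 ratios of Ccl3 and Ccl4 were then 5.32 and 4.21, which lowers the unlogged fold by over 1.5 times. The part of the cells left out in this change was not tested.

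The step from Tn to Tcm was largest for Xcl1 among the 4 genes over the libraries together. Xcl1 was 6.60-fold higher in Tcm (log2 ratio 2.72), beside 4.00-fold for Ccl3, 3.06-fold for Ccl4 and 2.02-fold for Ccl5. In library 4 the step was 9.11-fold for Ccl3, from 21 UMIs in Tn, against 5.17-fold for Xcl1. With 10 CPM added, the log2 ratios of library 4 were 2.08 for Ccl3 and 2.27 for Xcl1. Of the 4, Ccl3, Ccl4 and Xcl1 were at least 2-fold higher in each library, where 1.01% of 7159 genes were so upward and 0.223% downward. Ccl5 fell short of that mark in libraries 1 and 2, with log2 ratios of 0.70 and 0.95, and stood at 1.01 and 1.05 in libraries 3 and 4.

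Within the Teff and Tex clusters, TIM-3+ Tex stood apart for Ccl3 and Ccl4. Ccl3 was 3.40-fold and Ccl4 2.91-fold higher in TIM-3+ Tex than in the other 4 Teff and Tex clusters together (log2 ratios 1.76 and 1.54). These 2 genes were among the 4 genes, 0.053% of 7554, that were at least 2-fold higher in each library, while 0.477% were at least 2-fold lower. Ccl5 was 1.60-fold higher, with log2 ratios of 0.55 to 0.82 over libraries. Xcl1 was lower in all 4 libraries, with a fold of 0.608 over all cells. With 10 CPM added, its log2 ratios were -0.53, -1.46, -1.91 and -0.96 in libraries 1 to 4, the third from 31 cells of TIM-3+ Tex. It was at least 2-fold lower in libraries 2 and 3 only, and so did not reach the mark. When each clonotype was counted once and cells with no TCR called were left out, the log2 ratios of Ccl3 and Ccl4 were 2.79 and 2.18. The cells left out included 481 of TIM-3+ Tex, and their part in this change was not tested.

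Cycling cells held less of each gene than the 5 Teff and Tex clusters as a group, among which TIM-3+ Tex raised the level of Ccl3 and Ccl4. The fold was 0.694 for Ccl3, 0.584 for Ccl4, 0.487 for Ccl5 and 0.430 for Xcl1. Without TIM-3+ Tex, the Teff and Tex clusters held 631 CPM of Ccl3, below the 689 CPM of cycling cells, and cycling cells lay above GzmB+ Teff in 4 libraries and above transitory Teff in 3. Ccl5 was lower in cycling cells than in each of the 5 clusters in all 4 libraries. Ccl5 was at least 2-fold lower in each library, where 0.0907% of 7720 genes were so and 3.35% were at least 2-fold higher. Cycling cells were also the deepest cluster, with a median of 13960 UMIs against 5545 to 10378 in the Teff and Tex clusters, and the part of depth in their lower levels was not tested.

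A level in CPM can come from many cells with few UMIs or from few cells with many, so each cell was thinned at random to 2500 UMIs and the cells that kept a UMI were counted. Ccl3 was found in 77.8% of thinned TIM-3+ Tex cells (95% Clopper-Pearson interval 75.2% to 80.3%), 34.5% of transitory Teff, 9.22% of Tcm and 2.83% of Tn. Before thinning these shares were 91.2%, 48.6%, 18.8% and 8.72%, at medians of 8434, 5545, 6958 and 7834 UMIs per cell. Tn served as the cells that should lack the gene, and every other cluster was above the Tn share. Ccl4 was found in 84.4% of thinned TIM-3+ Tex cells, 50.8% of transitory Teff, 18.3% of Tcm and 10.2% of Tn (94.98%, 64.9%, 34.8% and 26.7% before thinning).

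Ccl5 was found in 99.9% of thinned TIM-3+ Tex cells, 99.7% of Tcm and 89.1% of Tn, so its share said little about the clusters. Free RNA in the droplets was not measured, and the Ccl5 of Tn was set against free RNA on the assumption that it held Ccl5 and Ccl3 in the ratio of all cells of a library. In these there were 20.6 to 31.2 UMIs of Ccl5 for each of Ccl3, and in Tn 185 to 711. Under that assumption, if all Ccl3 in Tn had come from free RNA, the Ccl5 that came with it would have been 4.38% to 12.4% of the Ccl5 in Tn. The Ccl3 of Tn rested on 21 to 64 UMIs per library, and the source of the Ccl5 in Tn was not tested.

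Xcl1 was found in 62.6% of thinned Tcm cells and in 23.5% of transitory Teff, while its level was 535 and 638 CPM over the 4 libraries together. The ratio of levels, transitory Teff over Tcm, was 0.874, 0.759 and 0.556 in libraries 1 to 3 and 1.85 in library 4, so its direction rested on library 4. Before thinning the shares were 88.9% and 33.4%. The tenth of cells with the most Xcl1 held 40.2% of its thinned UMIs in Tcm and 83.6% in transitory Teff. Of the other clusters, TIM-3+ Tex (21.1%), cycling cells (17.5%) and TIGIT+ Teff (23.0%) lay nearest to the 14.8% of Tn. The interval of cycling cells (15.8% to 19.2%) overlapped with that of Tn (13.0% to 16.8%), although the level in cycling cells was above Tn in all 4 libraries. Library 3 had 9.68% of its 31 TIM-3+ Tex cells with Xcl1 after thinning, below the 14.8% of Tn. The interval of that share (2.04% to 25.8%) covered the 14.8% of Tn.

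**Figure D2:**
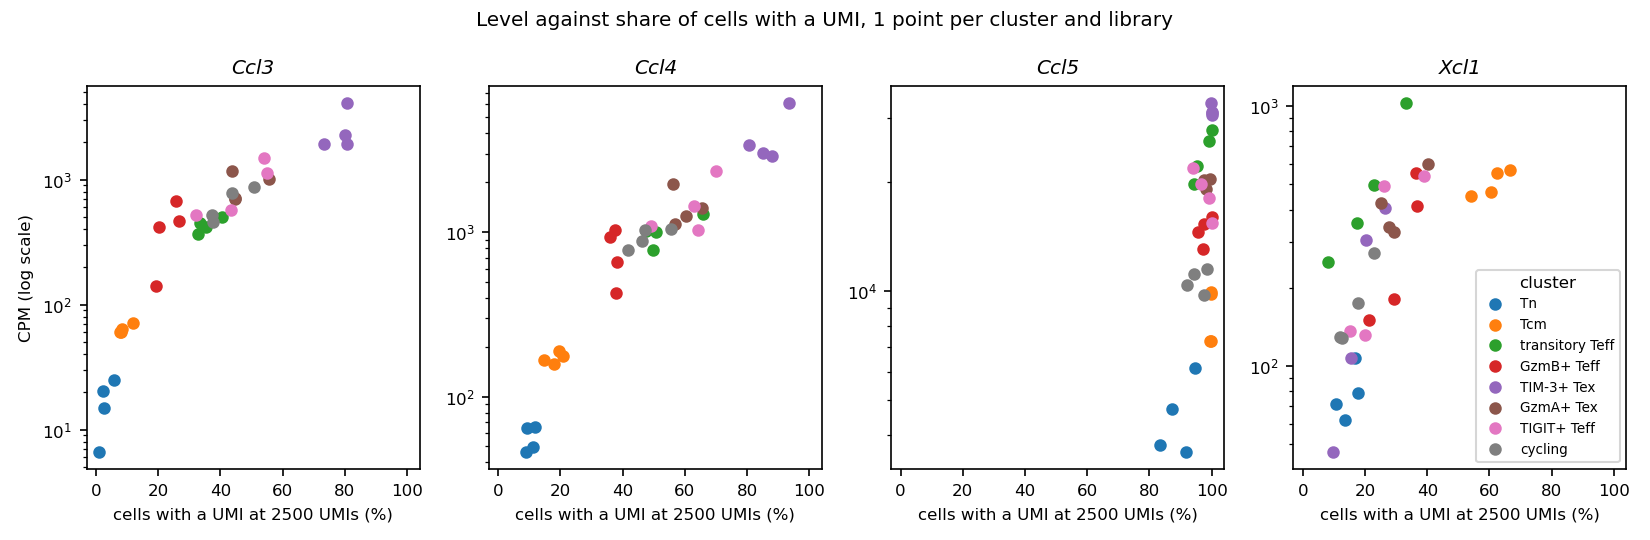
Level in CPM on a log scale (y axis) against the percentage of cells with a UMI of the gene after thinning to 2500 UMIs (x axis), with a point for each cluster in each library. Ccl3 and Ccl4 are higher in level where their share is higher, Ccl5 varies in level at shares above 83%, and for Xcl1 the Tcm points lie at 54.2% to 66.6% of cells without a higher level than transitory Teff of library 4 at 33.1%.

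The number of UMIs per cell showed the same contrast. At least 5 Xcl1 UMIs of 2500 were held by 4.36% of Tcm and 5.24% of transitory Teff cells, and at least 10 by 0.878% and 2.64%. Tcm led at 1 UMI and transitory Teff at 5 or more. For Ccl3, TIM-3+ Tex led up to 50 UMIs, with 17.2% of its cells at 10 UMIs or more against 5.78% of GzmA+ Tex, 5.02% of TIGIT+ Teff, 4.10% of cycling cells, 2.12% of transitory Teff and 0.0585% of Tcm. At 100 UMIs or more there were 0% of TIM-3+ Tex cells and 0.123% of TIGIT+ Teff.

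**Figure D3:**
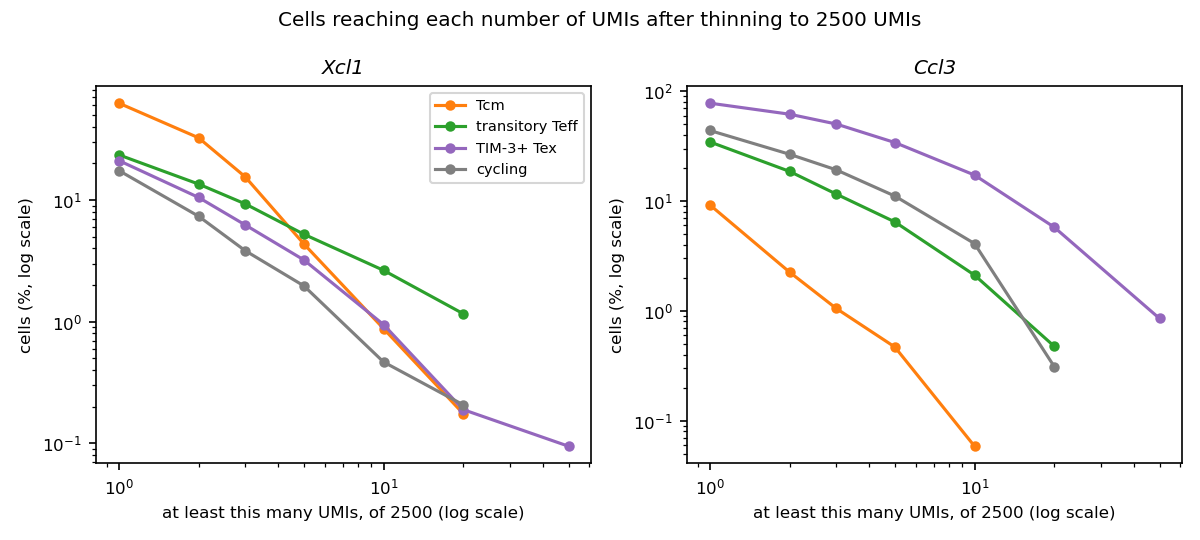
Percentage of cells (y axis, log scale) that held at least the number of UMIs on the x axis (log scale) after thinning to 2500 UMIs, for Xcl1 and Ccl3 in 4 clusters over the 4 libraries together. The Xcl1 lines of Tcm and transitory Teff cross between 3 and 5 UMIs, and the Ccl3 line of TIM-3+ Tex stays above the others.

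Much of the Xcl1 of transitory Teff lay in cells that a cluster number sets apart. Beside its name, each cell carries a Leiden cluster number, and 205 of the 1891 transitory Teff cells carried the number that belongs to GzmB+ Teff. These cells held 2716, 1367, 2037 and 2630 CPM of Xcl1 in libraries 1 to 4, the third from 9 cells, and 76.4%, 45%, 50% and 59.3% of all Xcl1 UMIs of the cluster, 60.8% over the libraries together. Without them, transitory Teff held 136, 221, 133 and 542 CPM, below Tcm in each of the 4 libraries, though close to its 555 CPM in library 4. With only the cells that carry the transitory Teff number, the libraries held 107, 250, 143 and 582 CPM, in library 4 above Tcm. Their Ccl5 stood at 5474 CPM against 26069 CPM in the 1324 cells with the number of transitory Teff.

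Other genes, chosen after their values were seen, also differed between these 205 cells and the rest. Against cells with the transitory Teff number, Id3 stood at 265 and 59.9 CPM, Slamf6 at 274 and 97.9 CPM, Tcf7 at 244 and 115 CPM, and Tnfrsf9 at 299 and 71.0 CPM. The inhibitory receptor gene Pdcd1 stood at 404 and 190 CPM and Tox, a transcription factor of exhausted cells, at 443 and 276 CPM. Gzmb stood at 42.6 and 499 CPM. Isg15, an interferon-induced gene that marks GzmB+ Teff at 1086 CPM, stood at 65.1 CPM in them, so they did not carry the leading transcripts of the cluster whose number they had. A further 287 transitory Teff cells carried the number of TIM-3+ Tex and held 1000 CPM of Ccl3 and 2310 CPM of Ccl4, against 341 and 723 CPM in cells with the transitory Teff number.

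Whether the genes were found in the same cells was counted after thinning. Ccl4 was found in 74.0% of transitory Teff cells with Ccl3 and 38.6% of those without, in 91.1% and 60.7% for TIM-3+ Tex, in 81.7% and 23.8% for GzmB+ Teff, and in 75.2% and 28.6% for cycling cells. It was the more frequent in cells with Ccl3 in all 4 libraries of every cluster other than Tn, where 3 of 4 libraries showed it. The correlation of their log counts across cells ran from 0.23 in Tn to 0.73 in GzmB+ Teff. Cells share library and base composition, and these values are descriptions.

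Xcl1 was detected less often beside Ccl3 in most clusters. It was found in 17.3% of transitory Teff cells with Ccl3 and 26.8% of those without, and was the less frequent with Ccl3 in all 4 libraries. The same held in all 4 libraries of GzmB+ Teff (27.8% and 34.1%), GzmA+ Tex (25.99% and 36.1%) and TIGIT+ Teff (19.9% and 26.2%). In TIM-3+ Tex (19.0% and 28.6%) and cycling cells (16.7% and 18.1%), 1 library went the other way. Tcm did not show it, with 66.7% in cells with Ccl3 and 62.2% in those without. The correlation of log counts between Ccl3 and Xcl1 in transitory Teff was near 0, at -0.010 over all cells and -0.046 to 0.24 over libraries. The correlation of log counts between Ccl5 and Xcl1 was -0.47 in transitory Teff (-0.52 to -0.24 over libraries).

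Transitory Teff cells with a thinned Xcl1 UMI (445 cells) were then compared with those without (1446 cells) over other genes. At least 2-fold higher in each library were Id3 (178 against 39.6 CPM), an inhibitor of E proteins kept by memory-like cells, Crtam (181 against 42.1 CPM), an adhesion receptor of activated CD8+ T cells, Tnfrsf9 (193 against 59.8 CPM), which encodes the costimulatory receptor 4-1BB, and Itm2a (156 against 48.4 CPM). These 4 were 0.149% of 2680 genes. At least 2-fold lower were 5 genes (0.187%): Ccl5 (12191 against 33408 CPM), the granzymes Gzma (169 against 826 CPM) and Gzmb (180 against 518 CPM), Lgals3 (111 against 318 CPM), which encodes galectin-3, and S1pr4 (67.4 against 173 CPM). Cells with Xcl1 were deeper before thinning, at a median of 7526 against 5139 UMIs, and the smallest library gave 16 of them. Among cells with the number of transitory Teff alone, Id3 and Tnfrsf9 passed upward and Gzma downward. Among cells between the lower and upper quartile of depth, Id3, Crtam and Itm2a passed upward and Ccl5, Gzmb, Lgals3, Fgl2, S100a4 and S100a6 downward.

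The same split by Ccl3 (653 cells with and 1238 without) gave Ccl4 alone, at 2322 against 385 CPM, as 0.0373% of 2680 genes upward and 0% downward. Depth did not set these cells apart, at medians of 5435 and 5639 UMIs. Id3 was lower in cells with Ccl3 in each library, by 0.78 to 1.75 on the log2 scale, and Slamf6 by 0.59 to 1.40, the opposite direction to the split by Xcl1. Ifng was higher by 0.83 to 1.15 and Nr4a2 by 0.81 to 1.37. In Tcm and in cycling cells, the split by Xcl1 gave 0 genes in either direction.

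**Figure D4:**
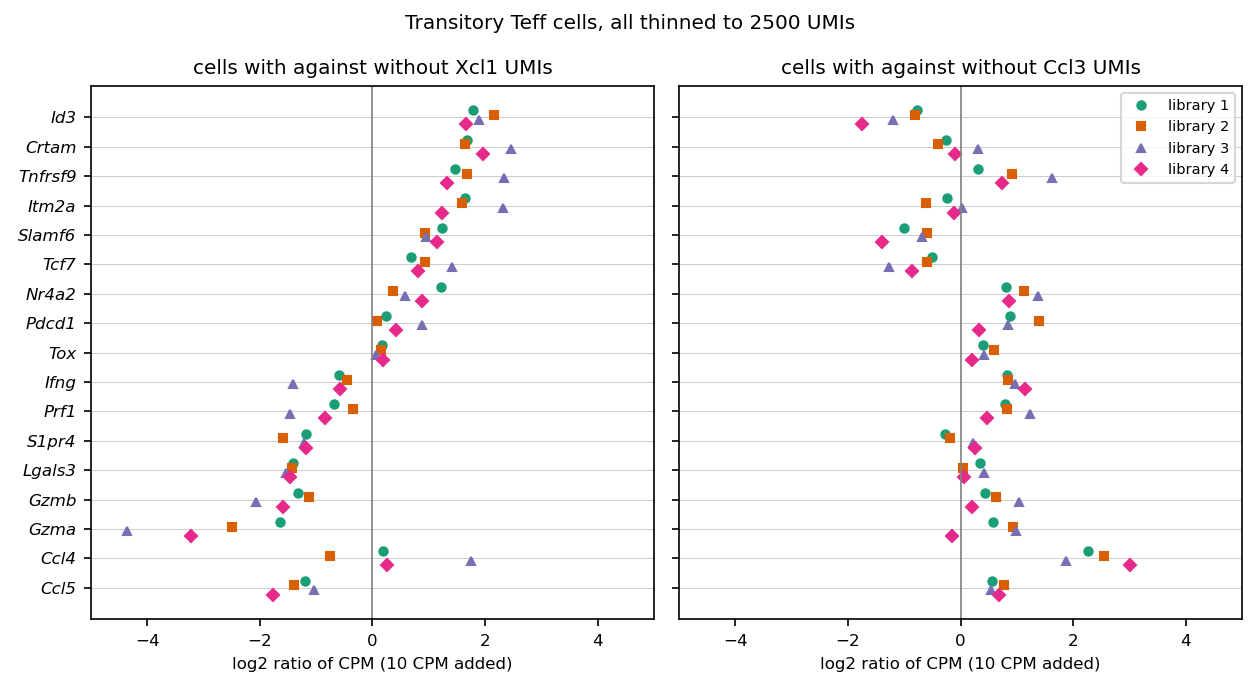
Log2 ratio of CPM, with 10 CPM added (x axis), between thinned transitory Teff cells with and without a UMI of Xcl1 (left) or Ccl3 (right), for 17 genes (y axis), with a point for each library. Id3 lies above 1.66 on the left and below -0.77 on the right in all 4 libraries, and Ccl5 lies below -1.04 on the left and above 0.54 on the right.

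Where the same clone was found in several clusters, the comparison could be made within cells of the same TCR. In 13 clones of 3 libraries that had at least 8 cells in both transitory Teff and TIM-3+ Tex, Ccl3 was higher in TIM-3+ Tex in 12 (median log2 difference 2.03), Ccl4 in 12 (1.99) and Ccl5 in 10 (0.35), while Xcl1 was lower in 12 (-2.65). In 11 clones that had as many in both TIM-3+ Tex and cycling cells, Ccl3, Ccl4 and Ccl5 were lower in cycling cells in all 11, and Xcl1 in 7. In 17 clones that had as many in both transitory Teff and cycling cells, Ccl5 was lower in cycling cells in all 17 and Xcl1 in 15, while Ccl3 was higher in 9 and lower in 8 (median log2 difference 0.0066) and Ccl4 was higher in 6 and lower in 11.

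Genes whose pattern over the 32 sums was most like that of each chemokine were ranked by Pearson correlation of log2(CPM + 10) among 2765 genes. Sums of the same library share its depth and mice, and the correlations are descriptions. For Ccl3 the nearest was Ccl4 (0.99), followed by Nr4a2 (0.97), an orphan nuclear receptor induced by antigen receptor signaling, Lag3 (0.97), an inhibitory receptor, Ptms (0.97) and Samsn1 (0.96). Ccl4 had Ccl3 and the same other genes. For Ccl5 they were Nkg7 (0.95), a cytotoxic granule protein, Cd3g (0.93), Cd3e (0.92), AW112010 (0.92) and 1110008P14Rik (0.91). Cd3e and Cd3g had also been used by the authors to select cells. Xcl1 had weaker neighbors, Psen2 (0.82), Smpdl3a (0.74), Klrk1 (0.72), which encodes the NK receptor NKG2D, Gyg (0.70) and Vti1b (0.70), and its correlation with Ccl3 was 0.14.

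Other chemokine ligands were few. Of 30 listed, 22 were in the table and 2 exceeded 50 CPM in a cluster. Cxcl10, an interferon-induced ligand of CXCR3, stood at 228 CPM in GzmB+ Teff (75.3 to 295 over libraries). It was at least 2-fold higher in each library in Teff and Tex than in Tn. That was 1 of 2 members at 10 CPM or more, against 2.57% of all genes upward. Ccl8, a ligand made by macrophages, stood at 87.4 CPM in GzmA+ Tex and at most at 4.40 CPM elsewhere. The macrophage markers were highest in the same cluster, where 95.3% of these cells had a UMI of such a marker. Their part in the level of the 4 chemokine genes in GzmA+ Tex was not tested.

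Of 15 receptors of other chemokines in the table, 8 were tested between Teff and Tex and Tn. Cxcr6, which guides T cells to CXCL16, Cx3cr1, the fractalkine receptor of effector cells, and Ccrl2 were at least 2-fold higher in each library, and Ccr7, which holds naive cells in lymphoid tissue, was lower. Of all genes, 2.57% were so upward and 0.241% downward, and the median log2 ratio of the 8 receptors was 0.32 beside 0.21 over all genes. Cxcr6 stood at 64.9 CPM in Tn and 496 CPM in TIM-3+ Tex, and Ccr7 stood at 226 and 4.68 CPM. Cxcr3 stood at 124 to 285 CPM and Ccr2 at 41.1 to 184 CPM over the clusters.

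Genes induced by the antigen receptor moved partly with Ccl3 and Ccl4. Of 27 listed, 21 were tested between Teff and Tex and Tn, and 6 were at least 2-fold higher in each library and 0 lower (2.57% and 0.241% of all genes), with a median log2 ratio of 1.05 beside 0.21 over all genes. The 6 were Nr4a2 (12.3 CPM in Tn and 286 CPM in TIM-3+ Tex), Tnfrsf9 (11.9 and 261 CPM), Ifng (16.8 and 207 CPM), which encodes the cytokine IFN-γ, Irf8 (14.0 and 126 CPM), Nfatc1 (66.0 and 209 CPM) and Cd160 (75.1 and 336 CPM). Cd160 was highest in Tcm in all 4 libraries, at 472 CPM over them together. Dusp2, a phosphatase of MAP kinases, stood at 195 CPM in Tn and 463 CPM in TIM-3+ Tex, Ier3 at 18.1 and 63.6 CPM, Egr1 at 21.2 and 55.6 CPM, and Nfkbia at 207 and 298 CPM, without reaching the mark in every library. Cd69, an early activation receptor, was highest in GzmB+ Teff at 337 CPM and stood at 134 CPM in TIM-3+ Tex. Crtam stood at 50.4 CPM in Tn, 94.8 CPM in transitory Teff and 33.9 CPM in TIM-3+ Tex, so it was lower in TIM-3+ Tex than in Tn. None of the list reached the mark in either direction between TIM-3+ Tex and the other Teff and Tex clusters. Few genes did, 0.053% of all genes upward, Ccl3 and Ccl4 among them, and 0.477% downward. At these shares the lack of a call says little about the list. Among the Teff and Tex clusters other than TIM-3+ Tex, Nr4a2 was highest in TIGIT+ Teff (232 CPM) and lowest in GzmB+ Teff (75.3 CPM).

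Of 12 transcription factors described for these genes, all were tested and 2 were at least 2-fold higher in Teff and Tex than in Tn: Prdm1, which encodes Blimp-1, and Bhlhe40, against the 2.57% of all genes given above, with a list median of 0.38 on the log2 scale beside 0.21 over all genes. Klf13, described as a regulator of RANTES transcription in T cells, stood at 126 CPM in TIM-3+ Tex, where Ccl5 was highest, and 171 CPM in Tn, where Ccl5 was lowest. Tbx21, which encodes T-bet, stood at 63.9 CPM in TIM-3+ Tex and 121 CPM in Tcm. The AP-1 genes Junb, Jun and Fos were highest in Tcm over the 4 libraries together, at 979, 183 and 161 CPM, and stood at 507, 80.1 and 80.9 CPM in TIM-3+ Tex. The NF-κB genes Nfkb1 and Rel were highest in TIGIT+ Teff, at 168 and 76.5 CPM, and Rela stayed between 60.6 and 77.6 CPM over the clusters. Eomes stood at 105 CPM in Tn and 211 CPM in TIM-3+ Tex, and Runx3 at 98.4 and 218 CPM.

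Granule proteins were taken up because CCL3, CCL4 and CCL5 can be stored with them. All 5 listed were tested, and the granzymes Gzma, Gzmb and Gzmk were at least 2-fold higher in each library in Teff and Tex than in Tn, against 2.57% of all genes, with a list median log2 ratio of 3.11 beside 0.21. Gzma stood at 18.3 CPM in Tn and 1192 CPM in TIM-3+ Tex. Srgn, which encodes the proteoglycan serglycin that holds chemokines in granules, was already at 413 CPM in Tn and reached 864 CPM in TIM-3+ Tex, and Prf1, the pore-forming perforin, stood at 63.3 and 203 CPM. None of the 5 reached the mark between TIM-3+ Tex and the other Teff and Tex clusters, which 0.053% of all genes reached upward and 0.477% downward.

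Promoter sequence was at hand in RefSeq for 2 of the 4 genes, Ccl3 and Xcl1, whose order over the clusters differed most. The 250 bases before the start are given on the minus strand of GRCm38.p6, at chr11:83649379-83649628 for Ccl3 and chr1:164935523-164935772 for Xcl1, with capitals at matches to GGAAA (the core of an NFAT site), TGTGGT (RUNX) and TCACACC (T-box) in either direction.
Ccl3: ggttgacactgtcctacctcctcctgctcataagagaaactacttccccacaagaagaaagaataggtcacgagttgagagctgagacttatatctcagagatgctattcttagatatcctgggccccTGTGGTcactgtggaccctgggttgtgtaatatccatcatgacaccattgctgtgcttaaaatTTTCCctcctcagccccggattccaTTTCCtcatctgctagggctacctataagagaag
Xcl1: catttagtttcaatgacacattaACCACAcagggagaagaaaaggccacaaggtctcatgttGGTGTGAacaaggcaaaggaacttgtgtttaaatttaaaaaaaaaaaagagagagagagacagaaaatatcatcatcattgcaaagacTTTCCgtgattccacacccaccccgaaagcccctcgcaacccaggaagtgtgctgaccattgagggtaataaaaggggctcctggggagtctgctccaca

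GGAAA was matched 2 times in Ccl3 and 1 time in Xcl1, and occurs in 55.6% of 32851 promoters of this length. TGTGGT was matched 1 time in each, against 14.0% of promoters. TCACACC was matched in Xcl1 alone, against 3.33% of promoters. TATAAA (12.4% of promoters), TGANTCA (AP-1, 6.75%), TGACGTCA (1.55%) and GGGNNNNNCC (45.8%) were matched in neither window. These matches describe letters and do not show that a factor was bound.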

How the data were processed

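CD8+ T cells of BM were captured with the 10x 5' platform in 4 libraries, 1 per treatment group. The authors aligned reads (Cell Ranger 7.00 and mm10, per the submitters' processing notes), downsampled them across libraries and kept cells that expressed Cd3e/g and Cd8a, within limits on the UMI total and on mitochondrial RNA. Lowest and highest totals were 2502 and 24983 UMIs per cell. The deposited values are raw UMI counts per gene and cell, with the authors' cluster names, Leiden numbers and library numbers. The sources state no removal of doublets, and none was made here. GENCODE M21 gave symbols to 17534 genes.

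UMIs were summed by cluster and library and divided by all UMIs of those cells (CPM). CPM was not scaled to length. Levels were compared within a gene, other than the UMIs of Ccl5 for each of Ccl3 in the free RNA calculation. Intervals at 95% were exact Poisson for CPM, conditional binomial for ratios and Clopper-Pearson for shares, and cover counting error only, since libraries are not replicates. Genes at 10 CPM or more over both sides were compared with 10 CPM added. Cells were thinned to 2500 UMIs with seed 7. In the clone comparisons, cells of the same clonotype and library were summed per cluster.

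The members and lists were chosen with earlier results of these data known. Named were the 4 chemokine genes, the 5 genes most like each among genes with a mean of 50 CPM over the 32 sums, with T cell receptor segments left out, and list genes at 50 CPM or more in any cluster. The list of receptors of the members is not reported here. Genes of the splits within transitory Teff, Ccrl2, Ccl6 and Ccl9 were named after their values were seen. Alternatives were planned for depth, weights, normalization (TMM), cluster numbers, clonotypes and libraries. The calculation was tested on simulated data. TMM factors came from edgeR 4.0.16 in R 4.3.3, and all else from Python 3.11.15 (matplotlib 3.10.9, pandas 2.3.3, scipy 1.17.1, numpy 2.4.6).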

Additional observations from a re-analysis of the deposited data

How the results depend on the processing

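Over 8 alternatives and the removal of each library, no ratio of the 4 genes changed sign in the 3 contrasts run, and 48 of 144 values stayed within the counting interval of the ratio. The ratios of cycling cells and of transitory Teff over Tcm were not among them, and Xcl1 of transitory Teff, at 638 CPM above the 535 CPM of Tcm, stood below it at 298 CPM without the 205 cells that carry the Leiden number of GzmB+ Teff. The ratios follow as log2 values, with Teff and Tex over Tn written as the first contrast, Tcm over Tn as the second, and TIM-3+ Tex over the other Teff and Tex as the third. As reported, Ccl3 stood at 5.94, 2.0 and 1.76, Ccl4 at 4.84, 1.62 and 1.54, Ccl5 at 2.31, 1.02 and 0.68, and Xcl1 at 2.45, 2.72 and -0.72. The values that moved beyond the interval are given, and the cause was not tested. With the Leiden number in place of the name, Ccl3 stood at 5.56, 1.73 and 1.70, Ccl4 at 4.64 (the first) and 1.59 (the third), Ccl5 at 1.04 (the second) and 0.76 (the third), and Xcl1 at 2.14, 2.45 and -0.85. With TMM factors, Ccl3 stood at 5.67 and 1.80 and Ccl4 at 4.57 and 1.58 (the first and the third), Ccl5 at 2.03, 0.91 and 0.71, and Xcl1 at 2.17 and 2.61 (the first and the second). Counting each clonotype once also left out cells with no TCR called. With each clonotype counted once, Ccl3 stood at 5.32 and 2.79 (the first and the third), Ccl4 at 4.21, 1.48 and 2.18, Ccl5 at 1.94, 0.99 and 1.10, and Xcl1 at 2.66, 2.83 and -1.02. With cells thinned to 2500 UMIs, Ccl3 stood at 1.98 (the third), Ccl4 at 1.46 and 1.75 (the second and the third), Ccl5 at 2.44, 0.98 and 0.76, and Xcl1 at 2.16 and -0.58 (the first and the third). With equal weight of libraries, Ccl3 stood at 2.04 and Ccl4 at 1.79 (the third), Ccl5 at 2.28 and 0.91 (the first and the second), and Xcl1 at 2.29 and -1.02 (the first and the third). Without cells with macrophage or plasma cell UMIs, Ccl3 stood at 2.12 (the third), Ccl4 at 4.99, 1.40 and 1.80, Ccl5 at 2.28, 0.80 and 0.59, and Xcl1 at 2.33, 2.91 and -0.53. The next settings were chosen after seeing the data. With Ighm left out of the macrophage and plasma cell markers, which left 24 GzmA+ Tex cells, Ccl3 stood at 2.08 (the third), Ccl4 at 1.75 and 1.83 (the second and the third), Ccl5 at 2.29, 0.98 and 0.73, and Xcl1 at 2.25 and -0.49 (the first and the third). Without transitory Teff cells of another Leiden number, Ccl4 stood at 1.61 (the third), Ccl5 at 2.35 and 0.65 (the first and the third), and Xcl1 at 2.09 and -0.29 (the first and the third). Leaving out each library in turn, Ccl3 ranged over 5.72 to 6.06, 1.75 to 2.19 and 1.66 to 1.87, Ccl4 over 4.74 to 4.96, 1.49 to 1.69 and 1.45 to 1.64, Ccl5 over 2.24 to 2.42, 0.96 to 1.12 and 0.61 to 0.76, and Xcl1 over 2.22 to 2.53, 2.64 to 2.89 and -0.83 to -0.55.

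Of the 5 genes most like Xcl1, 2 stayed when the minimum was 10 CPM. The number of libraries, the missing link from library to treatment and the 31 cells of TIM-3+ Tex in library 3 limit every value, and a ratio between clusters carries no replicate error.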

Other observations

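The chemokine genes also differed with the size of the clone within a cluster, counted over cells with a TCR. In transitory Teff, Ccl3 stood at 215 CPM in clones of 1 cell, 384 CPM in clones of 2 to 5 cells, 476 CPM at 6 to 20 cells and 554 CPM at 21 to 100 cells, and at 499 CPM in clones over 100 cells. In GzmB+ Teff it stood at 71.8 CPM in 358 cells of single clones and at 808 CPM in 53 cells of clones of 21 to 100 cells. Ccl5 in the same cells stood at 8134 and 39449 CPM. In TIM-3+ Tex, Ccl3 stood at 1394 CPM in 39 cells of single clones and at 3324 CPM in clones over 100 cells. Xcl1 in GzmA+ Tex stood at 869 CPM in single clones and 160 CPM in clones of 21 to 100 cells, whereas in transitory Teff it stood at 702 CPM in single clones and 751 CPM in clones over 100 cells. Cells with no TCR called were deeper, with a median of 12860 UMIs in TIM-3+ Tex against 5319 in clones of 21 to 100 cells, and no clone size applies to them.

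In transitory Teff, levels also spread between clones of the same library. Over 11 clones of library 1, Ccl3 ran from 63.8 to 1762 CPM, Ccl5 from 13722 to 63750 CPM and Xcl1 from 15.9 to 2324 CPM. In the cells of GzmA+ Tex with a UMI of a macrophage or plasma cell marker (553 of them), Ccl3 stood at 926 CPM, and in the 18 cells without at 677 CPM.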
